A study of Mus musculus with 3 samples.

Results

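Mitosis and G2/M genes are the 44 genes of a list that runs from the Cdk1 kinase and its cyclins through kinetochore, spindle and condensin proteins to the machinery of cytokinesis. They were read in immortalized mouse skin lymphatic endothelial cells (imLECs) as all probe sets that the platform annotation gives to 1 of these genes alone. Every one of the 44 had such a probe set, 103 probe sets in all, out of 18194 genes and 45101 probe sets on the array. All 3 samples form 1 group, with 1 culture each at passages 13, 14 and 18. The cells were isolated by FACS from the skin of H-2Kb-tsA58 mice (ImmortoMice). This transgene drives a temperature-sensitive SV40 large T antigen from an interferon-inducible promoter, and T antigen binds p53 and the Rb family. The cultures were expanded at 33 °C with interferon-γ and then held at 37 °C without it for 3 days, a step the protocol used to degrade the T antigen. Whether T antigen was gone at harvest was not analysed here, and no culture kept at 33 °C and no non-immortalized cells stand beside these samples.

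In dividing cells, the mitotic program is switched on late in the cycle. Cdk1 with cyclins A and B drives entry into mitosis, the spindle checkpoint holds cells until every kinetochore is attached, and the anaphase-promoting complex then releases the chromosomes and destroys the cyclins. Many of these genes are repressed in resting cells by the DREAM complex and activated in G2 by B-Myb and FoxM1 through a short promoter element, the cell cycle genes homology region (CHR), often beside CCAAT boxes bound by NF-Y.

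Those letters were common in the promoters of the members. RefSeq promoters (GRCm38.p6, 250 bases before to 50 bases after the gene start) matched 36 of the 44 members by symbol, and for 2 of them with more than 1 start the first listed was used. Ccna2, Aurkb, Foxm1, Kif20a, Tpx2, Smc4, Incenp and Cdc25c were not in the table. CHR letters, TTTGAA or TTCGAA on either strand, stood in 30 of 36 (83.3%), against 18.2% of 17492 protein-coding promoters of the same length. CCAAT on either strand stood in 29 of 36 (80.6%), against 39% of them, and 2 or more CCAAT boxes in 20 (55.6%), against 13.5%. Both motifs together stood in 27 of 36 (75%), against 7.43%. The motifs were also common in other mitotic genes, a list without any member that is described below. Of 50 promoters of that list, 31 held CHR letters (62%), 32 a CCAAT box (64%) and 21 both (42%). Of 42 promoters of DNA replication and G1/S genes, by contrast, 9 held CHR letters (21.4%) and 25 a CCAAT box (59.5%). Matches of the 2 motifs were counted separately and could share a base. No CHR letters lay in the windows of Mad2l1, Birc5, Pttg1, Cenpe, Nuf2 and Nek2, which says only that these letters are absent from that window.

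The stretches below end at the base before the gene start and are shown 5′ to 3′ on the gene's strand, with CCAAT boxes and CHR letters of either strand in capitals. The first 6 are members with both motifs before the start that were highest at passage 14, and the last is Spc25, whose values did not follow the rest. The stretches lie at chr9:70421555-70421734 (-) for Ccnb2, chr10:69352913-69353032 (-) for Cdk1, chr4:118437344-118437463 (-) for Cdc20, chr2:164769809-164769928 (+) for Ube2c, chr7:135716380-135716579 (-) for Mki67, chr11:99024190-99024389 (-) for Top2a and chr2:69206214-69206333 (-) for Spc25.
Ccnb2: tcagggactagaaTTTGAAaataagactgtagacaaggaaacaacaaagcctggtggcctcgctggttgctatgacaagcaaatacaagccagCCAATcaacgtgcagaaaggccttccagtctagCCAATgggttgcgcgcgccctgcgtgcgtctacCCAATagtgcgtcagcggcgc
Cdk1: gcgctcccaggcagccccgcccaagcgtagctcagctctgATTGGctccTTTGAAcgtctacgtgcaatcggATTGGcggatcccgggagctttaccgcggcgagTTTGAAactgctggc
Cdc20: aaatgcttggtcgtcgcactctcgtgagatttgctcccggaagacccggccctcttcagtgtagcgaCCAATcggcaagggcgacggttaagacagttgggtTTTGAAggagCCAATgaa
Ube2c: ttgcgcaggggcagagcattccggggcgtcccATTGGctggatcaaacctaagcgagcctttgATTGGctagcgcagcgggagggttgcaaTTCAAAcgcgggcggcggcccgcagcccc
Mki67: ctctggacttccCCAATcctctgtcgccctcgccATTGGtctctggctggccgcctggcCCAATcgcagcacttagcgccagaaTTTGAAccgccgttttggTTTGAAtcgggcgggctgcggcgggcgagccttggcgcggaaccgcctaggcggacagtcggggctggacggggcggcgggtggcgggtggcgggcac
Top2a: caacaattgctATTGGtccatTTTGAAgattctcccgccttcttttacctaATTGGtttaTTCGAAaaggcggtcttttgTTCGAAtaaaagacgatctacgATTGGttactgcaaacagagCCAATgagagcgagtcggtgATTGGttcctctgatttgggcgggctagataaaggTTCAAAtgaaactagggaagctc
Spc25: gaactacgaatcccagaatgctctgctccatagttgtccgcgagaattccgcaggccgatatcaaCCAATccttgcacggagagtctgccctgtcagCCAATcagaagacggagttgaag
Top2a held 5 CCAAT boxes and 4 CHR matches in its 200 bases, the most of the 7 stretches. In Cdk1 and Cdc20 the nearest CHR match began 15 and 18 bases before the start. Spc25 had 2 CCAAT boxes in its stretch and no CHR letters there, but a CHR match began at base 25 after the start. Aurka, Cenpa and Plk1 likewise had CHR matches only after the start, at bases 33, 17 and 31. So did Cenpf, Bub1, Cdca8, Cdca3, Anln, Kif23, Ttk, Racgap1, Ndc80 and Kif4. All of these other members were highest at passage 14. Whether the position of a match bears on expression was not tested.

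**Figure D1:**
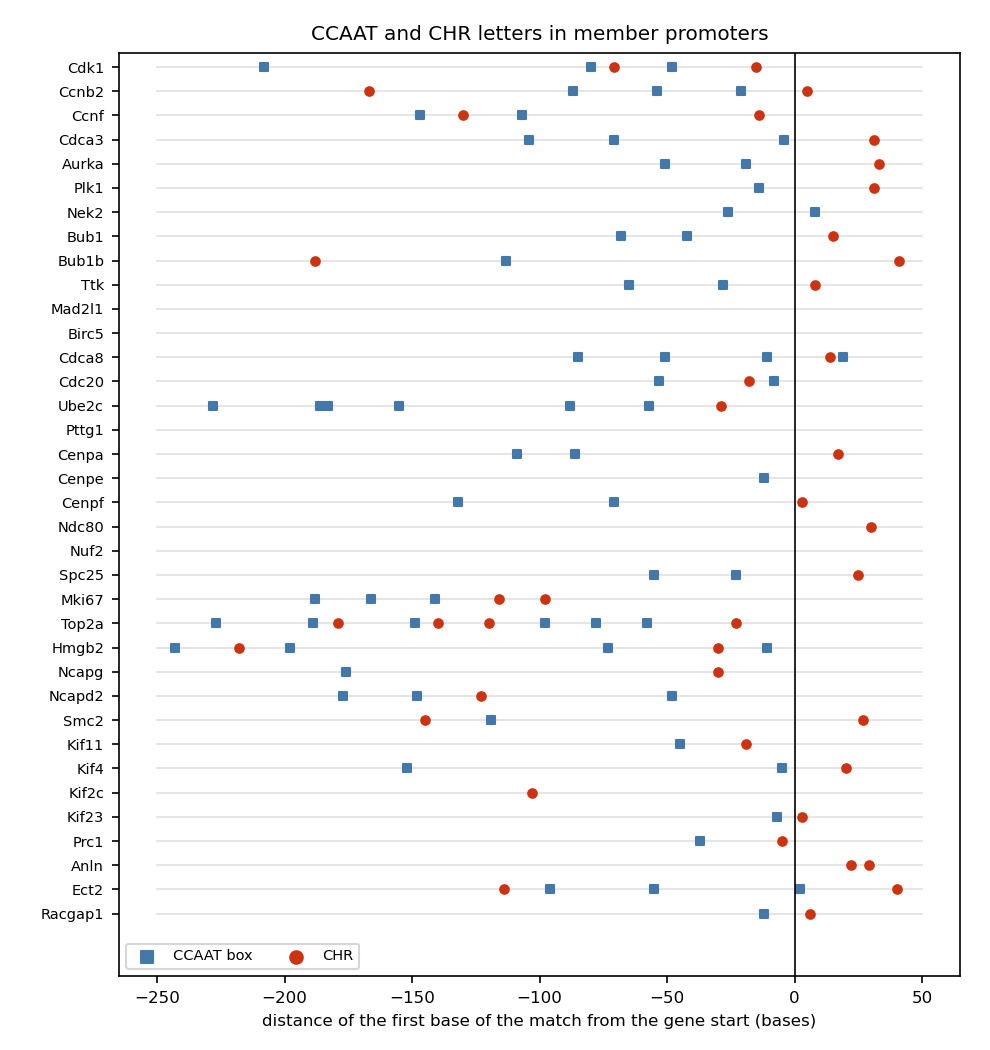
Positions of CCAAT boxes (blue squares) and CHR letters (red circles) in the promoters of 36 members, as the distance in bases of the first base of each match from the gene start (vertical line). CHR letters lie in 30 of 36 promoters, and Spc25, like several other members, has its match only after the start.

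Across the arrays, the median intensity was 25.7, 26.0 and 26.3 at passages 13, 14 and 18, and 8400 of 18194 genes (46.2%) counted as detected because each of their 3 values exceeded a floor. The floor was the 95th percentile of 43 genes restricted to other tissues and stood at log2 6.11, 5.98 and 6.07. Endothelial identity was present, with 14 of 16 pan-endothelial markers detected, among them Cdh5 and Pecam1, and 7 of 11 lymphatic markers, among them Lyve1, Pdpn and Flt4. Lyve1 (10.43, 11.52 and 7.35) and Sox18 (9.23, 10.27 and 7.87) were highest at 14 and 18.0-fold and 5.27-fold lower at 18. Foxc2 (9.61, 8.06 and 9.90) and Pdpn (12.17, 10.92 and 11.86) were instead lowest at 14. Of the 7 detected lymphatic markers, 2 were higher at 14 than at 13 and 5 lower. The part of these markers in the members' differences was not tested. Prox1, the lymphatic master regulator, was above the floor at passage 13 alone, and Itga9, Mmrn1 and Reln were below it throughout. No leukocyte marker was above the floor on all arrays (0 of 9). Ptprc was below it throughout, Cd53 above it on 2 arrays (7.93, 6.92 and 6.01), and Coro1a and Lyz2 on 1 each. Not detected either were Krt14 and Cdh1 of the keratinocyte list, where 1 of 7 passed (Krt10). The Gapdh 3′/5′ signal ratio, a measure of RNA integrity, was 8.59, 7.10 and 19.4 at passages 13, 14 and 18 and that of Actb 1.18, 1.20 and 1.42, so passage 18 had the highest ratio of both.

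Of the 44 members, 36 were detected, against 46.2% of all genes. Levels are log2 signal intensities of the brightest probe set of a gene, an SD is over all 3 arrays (n = 3), and differences between passages have no replicate check because 1 culture stands for each. Every member except Spc25 was highest at passage 14. That makes 43 of 44 members, or 35 of the 36 detected, where 36.9% of all genes and 36.2% of detected genes were highest there. A 2-fold or larger excess at passage 14 over 13 was measured in 24 of 36 detected members, against 1.75% of detected genes. With values below the floor taken as read, the count was 30 of all 44, against 2.13% of all genes. That count includes Nek2 and Kif4, for which the floor at passage 13 gives bounds of only 1.68-fold and 1.47-fold. The median difference was 1.21 log2 units over the detected members and -0.02 over all detected genes. From 14 to 18 the order was the reverse, with 28 of 36 at least 2-fold lower at passage 18 (background 4.93%) and a median of -1.59. Passages 13 and 18 lay closer together. Of the 36, 30 were lower at 18 than at 13 (background 51.3%), with a median of -0.36, but only Ube2c was at least 2-fold lower (1 of 36, background 1.81%). In such bulk RNA, more cells in G2 and mitosis and more of these transcripts per cell cannot be told apart.

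**Figure D2:**
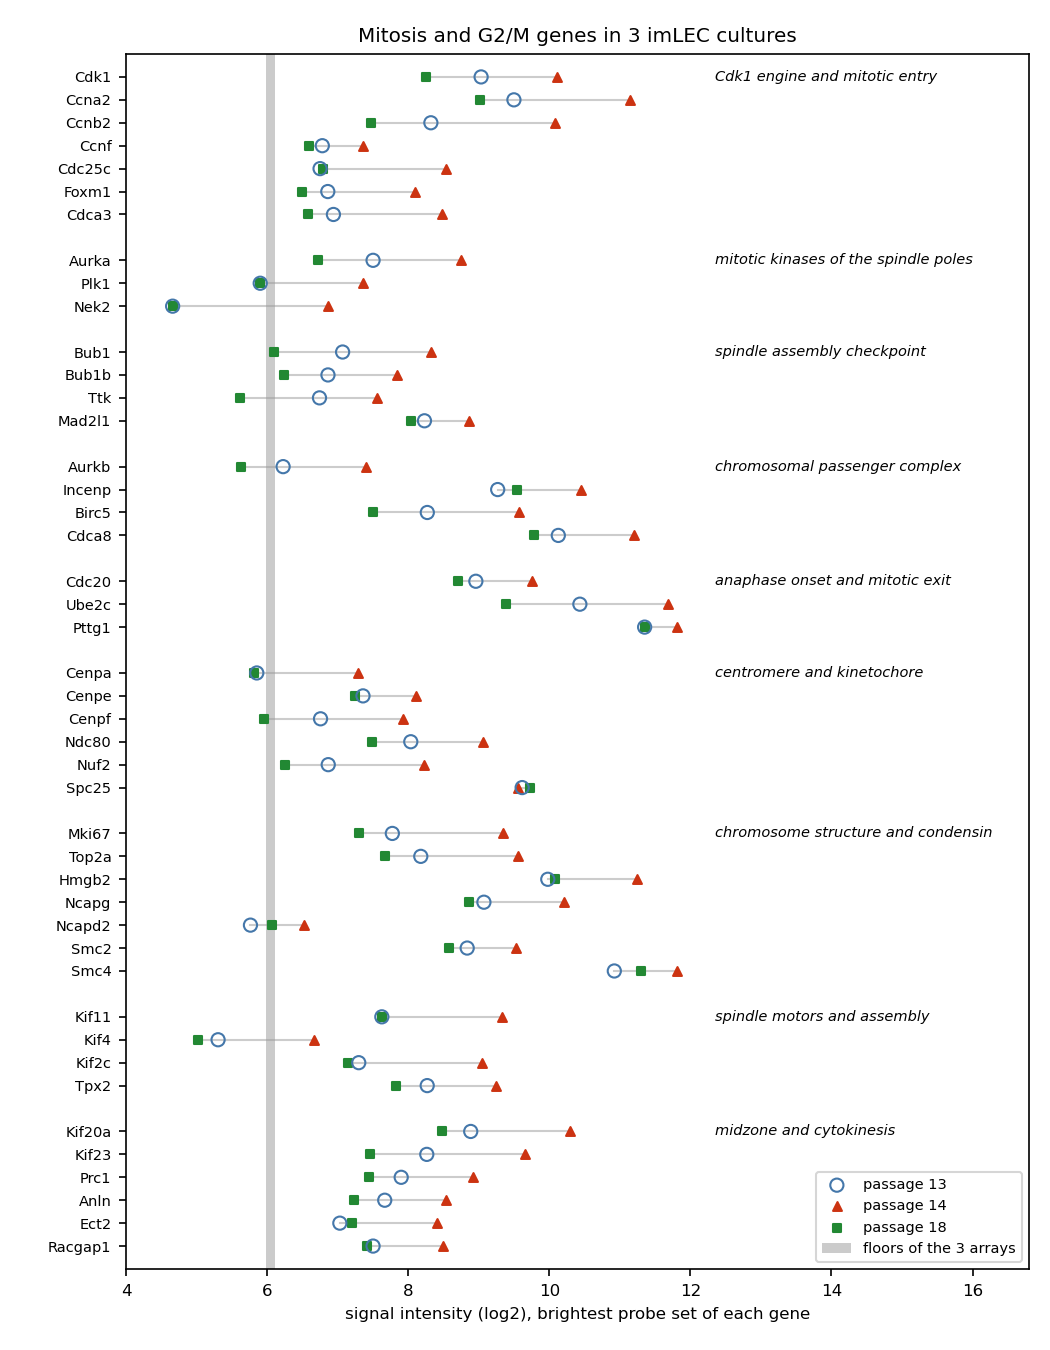
Signal intensity (log2) of the brightest probe set of each of the 44 members at passage 13 (open blue circles), 14 (red triangles) and 18 (green squares), grouped by role; the grey band spans the floors of the 3 arrays. The red triangle is the rightmost symbol in every row but that of Spc25.

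The Cdk1 engine gave the widest differences among the roles with all members detected. Ccnb2, a cyclin that activates Cdk1, read 8.32, 10.08 and 7.47 at passages 13, 14 and 18, which is 3.39-fold higher at 14 than at 13 and 6.14-fold lower at 18 than at 14. Ccna2, the cyclin of S phase and mitotic entry, read 9.50, 11.14 and 9.02. Passage 14 stood apart in both cyclins, and passage 18 was the lowest. Cdk1 itself read 9.03, 10.11 and 8.25 (9.13 ± 0.93), 2.11-fold higher at 14 than at 13. Cdc25c, the phosphatase that removes the inhibitory phosphates from Cdk1, read 6.75, 8.54 and 6.79. Its excess of 3.45-fold at passage 14 over 13 was the largest among detected members by their brightest probe sets. This one ends in _x_at, a suffix that marks possible cross-hybridisation, and the other, above the floor at 14 alone, differed by 1.20 log2 units. Foxm1, the transcription factor that activates many of these genes, read 6.86, 8.10 and 6.50, and Cdca3, an F-box-like factor of mitotic entry, 6.94, 8.48 and 6.59. The brightest probe set of Foxm1 also ends in _x_at. Its brightest without that suffix read 6.51, 7.74 and 5.73, the last below the floor. Ccnf, an F-box protein and the cyclin of the list that binds no Cdk, differed least in this role (6.78, 7.36 and 6.59), with passage 14 above 13 by 0.58. The role had a median of 1.54 for passage 14 minus 13 and -1.86 for 18 minus 14 over its 7 genes.

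Of the 3 kinases that act at the spindle poles, only Aurka was above the floor on all arrays. It read 7.50, 8.75 and 6.73, with passage 14 2.38-fold above 13 and passage 18 4.07-fold below 14. Plk1, which matures centrosomes and triggers Cdk1 activation, read 5.90, 7.36 and 5.90 and was above the floor at passage 14 alone, at least 2.38-fold higher than at 13 and 2.46-fold higher than at 18. Nek2, a kinase of centrosome separation, was likewise above the floor only at passage 14 (4.66, 6.86 and 4.67), at least 1.68-fold higher than at 13. These bounds set the passage 14 value against the floor, since values below it give only an upper limit.

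All 4 checkpoint genes were highest at passage 14 and lowest at 18. Bub1, a kinase that recruits checkpoint proteins to kinetochores, read 7.07, 8.32 and 6.10. Bub1b (BubR1), which inhibits Cdc20, read 6.86, 7.84 and 6.24. The checkpoint kinase Ttk (Mps1) read 6.74, 7.56 and 5.62, the last of them below the floor, so that it was at least 2.81-fold higher at 14 than at 18. In all 3 the passage 18 culture was lowest. Mad2l1, the checkpoint protein that captures Cdc20, spanned a narrower range of 8.23, 8.86 and 8.04. In the chromosomal passenger complex, which corrects faulty attachments and then directs cleavage, the subunits differed in how far passage 18 dropped. Birc5 (survivin) read 8.27, 9.57 and 7.50, Cdca8 (borealin) 10.13, 11.20 and 9.79, and the kinase Aurkb 6.23, 7.40 and 5.63, below the floor at passage 18. Incenp, the scaffold, was instead higher at 18 than at 13 by its brightest probe set (9.27, 10.45 and 9.55), while its next probe set, also above the floor throughout, read 7.47, 8.02 and 7.27. At passage 14 over 13 the brightest probe sets of the 4 subunits lay between 2.11-fold and 2.47-fold. That of Incenp ends in _x_at, and its next gave a difference of 0.55 log2 units, while the second of Aurkb, below the floor at 13, read 4.95, 7.64 and 5.02.

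The 3 genes of anaphase onset were all detected and highest at passage 14, by unequal amounts. Ube2c, the ubiquitin-conjugating enzyme of the anaphase-promoting complex, read 10.43, 11.68 and 9.38. Passage 18 lay 4.91-fold below 14 and 2.07-fold below 13. Cdc20, the activator of that complex, read 8.96, 9.76 and 8.71, a smaller spread (± 0.55). Pttg1 (securin), which restrains separase, had the smallest excess at passage 14 over 13 of all members that were highest at 14 (11.35, 11.82 and 11.35, or 1.38-fold). Its second probe set gave 9.02, 10.08 and 8.55, a difference of 1.06 in place of 0.46, and for Cdc20 the probe set that does not end in _x_at gave 7.72, 8.63 and 6.68. Both brightest probe sets carry such a suffix (_s_at, _x_at).

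At the kinetochore, Spc25 stood apart from its own complex. The Ndc80 complex, which grips spindle microtubules, consists of Ndc80, Nuf2, Spc24 and Spc25. Ndc80 read 8.04, 9.07 and 7.49, Nuf2 6.87, 8.22 and 6.25, and Spc24, no member of the list, 6.85, 8.16 and 5.84, below the floor at passage 18. All 3 were highest at passage 14 by at least 1.03 log2 units over passage 13. Spc25 read 9.62, 9.56 and 9.72 (9.63 ± 0.08), the smallest SD of the list, with passage 14 lowest. Its other probe set, below the floor on all arrays, was not highest at passage 14 either (5.39, 5.09 and 4.35). Cenpe, the kinetochore kinesin of chromosome congression, read 7.36, 8.11 and 7.24, and Cenpf, a large kinetochore protein, 6.76, 7.93 and 5.96. Cenpa, the histone H3 variant of centromeres, was above the floor at passage 14 alone (5.85, 7.29 and 5.82), at least 2.26-fold higher than at 13.

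Chromosome structure genes differed in how far passage 18 lay below 14. Mki67, which coats mitotic chromosomes, read 7.78, 9.35 and 7.30, and Top2a, which untangles DNA, 8.18, 9.56 and 7.68. Both were at least 2.60-fold higher at passage 14 than at 13. The condensin core subunits differed: Smc2 read 8.84, 9.52 and 8.58, whereas its partner Smc4 read 10.92, 11.81 and 11.30, with passage 18 above 13. All 3 Smc4 probe sets, each above the floor on all arrays, were higher at 18 than at 13, by 0.38, 0.51 and 0.38. The condensin I subunits Ncapg (9.07, 10.21 and 8.86) and Ncapd2 (5.76, 6.53 and 6.07, below the floor at passage 13) were also highest at 14. Hmgb2, a chromatin protein of cycling cells, read 9.98, 11.24 and 10.07, and both of its bright probe sets were higher at 18 than at 13. The role's median was 1.20 for passage 14 minus 13 but -1.26 for 18 minus 14 over 6 detected genes.

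Spindle motors and their partner Tpx2 were all highest at passage 14. Kif11 (Eg5), which pushes spindle poles apart, read 7.63, 9.34 and 7.62, 3.27-fold higher at 14 than at 13, and Kif2c (MCAK), a microtubule depolymerase, 7.30, 9.05 and 7.15, 3.37-fold higher. The second bright probe set of Kif2c, an _x_at set, gave less (6.62, 7.62 and 6.68). In Kif11 passages 13 and 18 coincided within 0.01 log2 units on its brightest probe set. The other 2 were below the floor at 13. Of these, 1 was also below it at 18 and gives no measured order of 13 and 18. The other read 6.31 at 18, above the floor of both arrays and so higher than at 13. Tpx2, which activates Aurka on the spindle, had a 1.96-fold excess (8.27, 9.24 and 7.82). Kif4, a chromosome-bound kinesin on the X chromosome, was above the floor at passage 14 alone (5.31, 6.67 and 5.02), at least 1.47-fold higher than at 13.

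All 6 genes of the central spindle and cytokinesis were detected, highest at passage 14 and at least 2-fold lower at 18 than at 14. Kif23, a subunit of centralspindlin, read 8.26, 9.65 and 7.46, and its partner Racgap1 7.50, 8.49 and 7.42. The pair thus differed in its drop from 14 to 18, 4.56-fold for Kif23 and 2.10-fold for Racgap1. Kif20a, the midzone kinesin that carries the passenger complex, read 8.89, 10.30 and 8.48, and Prc1, which bundles midzone microtubules, 7.90, 8.92 and 7.44. Anln, a scaffold of the contractile ring, read 7.67, 8.54 and 7.24. Ect2, the exchange factor that activates RhoA for furrowing, read 7.03, 8.41 and 7.20 and was the only gene of this role that was higher at 18 than at 13.

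**Figure D3:**
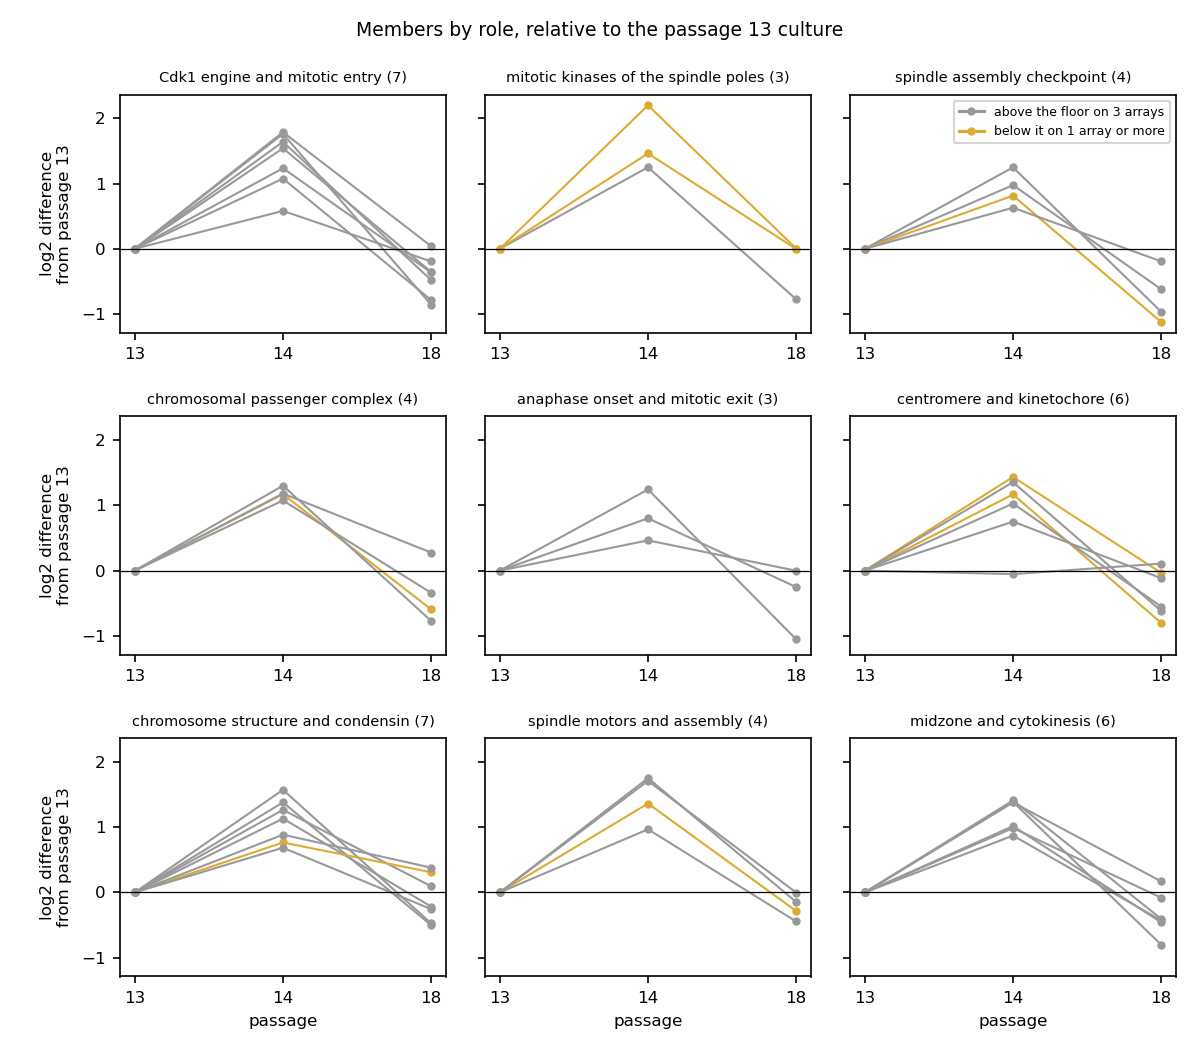
Log2 difference of each member from its own passage 13 value, in 9 panels by role; passages are spaced evenly, lines join the values of 1 gene, and yellow marks the 8 members below the floor on at least 1 array. Passage 14 is the peak in every line except the flat line of Spc25 in the kinetochore panel.

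Below passage 14, the members differed in whether the culture of passage 13 or 18 came next. The order 14, 13, 18 held for 30 of the 36 detected members (83.3%), against 25.6% of detected genes, where genes with tied values count as not in this order. Passage 18 was second for Cdc25c, Incenp, Hmgb2, Smc4 and Ect2 among detected members; of the members not detected, Nek2 was below the floor at both 13 and 18 and Ncapd2 at 13, so that their order there is not measured. The largest shortfall at 18 against 13 was that of Ube2c among detected members (-1.05), followed by Bub1 (-0.97) and Ccnb2 (-0.86). The largest excess was that of Smc4 (0.38). For the linear trend with passage number, limma called 0 of 42 tested members and 0 of 8957 genes (background 0%), with a smallest adjusted p of 0.893. At an unadjusted p under 0.05 there were 0 members and 304 genes (3.39%). Slopes were negative in 39 of 42 members (background 50.8%), with a median of -0.16 log2 units per passage. Leaving out 1 culture moved that median between -0.40 and 1.18, the last without passage 18, where passages 13 and 14 alone define the line.

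Different probe sets of a gene gave the same picture. Of the 103 probe sets, 57 were above the floor on all 3 arrays, and 56 of these were highest at passage 14, the exception being that of Spc25. A further 17 were above it on 1 or 2 arrays, and all 17 were highest at passage 14. Each of the 17 was above the floor at passage 14, and those on 1 array at 14 alone. Their peak at passage 14 was thus nearly fixed by this sorting and adds no support. Of the 29 that stayed below the floor, 19 were highest there. Among the 16 genes with at least 2 such bright probe sets, the sign of the difference was shared by all probe sets of the gene in 16 for passage 14 minus 13 and in 13 for passage 18 minus 13. The median range within a gene was 0.20 log2 units for both differences. Against the members' median of -0.36 for passage 18 minus 13 this range is large, and in 3 of the 16 genes the order of passages 13 and 18 turned on the probe set.

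**Figure D4:**
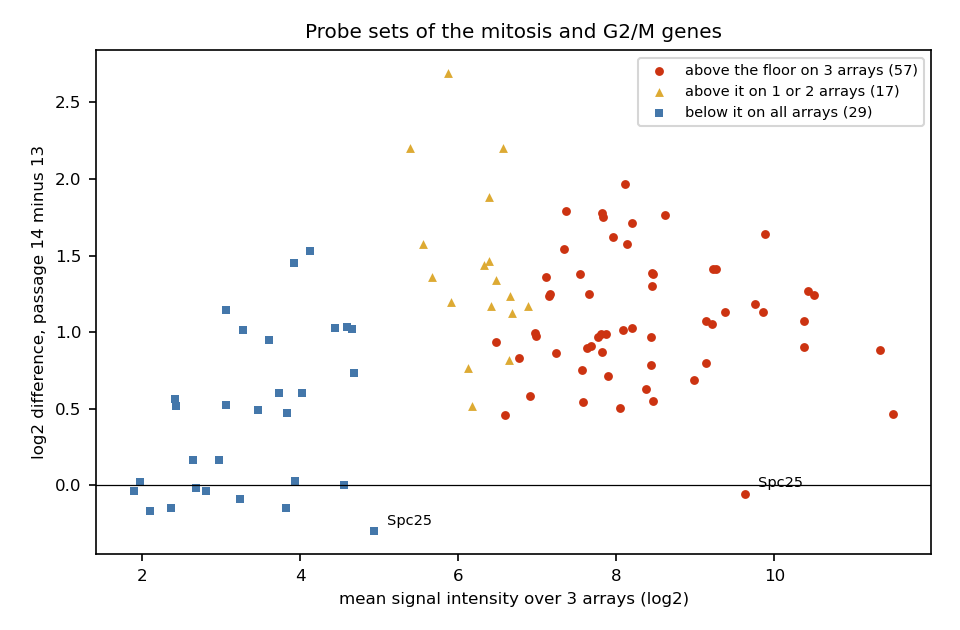
Log2 difference of passage 14 minus 13 for the 103 probe sets of the members (y axis) against their mean signal intensity over the 3 arrays (log2, x axis), by the number of arrays on which they were above the floor. Above the floor on all arrays, 56 of 57 points lie above 0, and every other point within 0.3 of 0 is below the floor on all arrays.

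Other mitotic genes, a list of 62 without any member, was also mostly highest at passage 14. Of 60 measured, 37 were detected, 31 of them highest at 14 and 24 lowest at 18. Among the 37, 13 were at least 2-fold higher at passage 14 than at 13 and 0 at least 2-fold lower, with a median of 0.87. The largest were Sgo1 (7.49, 9.08 and 7.76), which protects centromeric cohesion, and Nusap1 (7.66, 9.21 and 7.59), a spindle protein. The kinesins Kif18b and Kif20b read 7.53, 8.05 and 7.54, and 7.36, 8.62 and 7.55. Like Spc25, Gtse1 (8.46, 8.32 and 8.30) and Zwint (11.04, 10.94 and 10.80), the latter a kinetochore protein, were lower at 14 than at 13, as was Arhgap11a among the 37. Aspm, a spindle pole protein, read 7.77, 8.74 and 8.80 and so did not return toward the passage 13 value at 18.

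DNA replication and G1/S genes peaked at passage 14 by less. Of 44 detected, 39 were higher at 14 than at 13 (background 47.9%), but 3 by at least 2-fold, with a median of 0.49. Uhrf1 (7.07, 8.34 and 6.86), Mcm10 (6.97, 8.11 and 6.27) and Gins1 (7.89, 8.97 and 7.68) were those 3. The helicase subunits Mcm2 (8.57, 8.87 and 8.57) and Mcm3 (9.92, 10.52 and 10.01) differed by less, and Ccne1 (8.14, 7.81 and 8.04) and Rpa2 (9.38, 8.99 and 9.15) were lowest at 14. The mitotic and replication lists share the 3 arrays, and their difference has no test here.

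Detected genes of the anaphase-promoting complex, of cohesin and of the brakes and phosphatases of mitotic entry mostly differed by less than 2-fold between passages 13 and 14. Of 17 detected genes of the anaphase-promoting complex, 1 was at least 2-fold higher at passage 14 than at 13, Fbxo5 (Emi1, an inhibitor of the complex, 6.92, 8.24 and 6.25), while Anapc1 read 8.59, 9.17 and 8.48 and Anapc2 9.34, 9.09 and 9.60. Anapc11 was lowest at 14 relative to 13 (8.73, 8.40 and 7.94). Of 11 detected cohesin genes 0 passed 2-fold in either direction between 13 and 14, with a median of 0.23. Smc1a read 9.84, 10.11 and 9.79 and Smc3 was 0.15 higher at 14 than at 13. Passage 14 minus 13 was highest for Pds5a (0.58) and Stag1 (0.54) and lowest for Nipbl (-0.19) and Mau2 (-0.09) among cohesin genes and loaders. Esco2, an S phase acetyltransferase of cohesin, was above the floor at 14 alone (3.05, 6.15 and 2.53). Among 13 detected brakes and phosphatases of mitotic entry, Cdc25b (6.18, 7.22 and 6.32) alone was at least 2-fold higher at 14 than at 13, and the Cdk1-inhibiting kinase Wee1 read 8.16, 8.04 and 7.57. Its opponent Cdc25a was 0.07 higher at 14 than at 13. Cdc14b, of the same list but below the floor at 14, read 6.25, 4.71 and 6.91. The differences of passage 14 minus 13 were Cdc14a (0.75) and Ppp1cb (-0.24), which encode phosphatases, and Ensa (-0.39), which encodes an inhibitor of PP2A.

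DREAM and E2F regulators, a list that holds both repressors and activators, had no common direction. Of 22 detected, 8 were higher at 14 than at 13 (background 47.9%) and 0 passed 2-fold, with a median of -0.08. The lowest at 14 relative to 13 were the pocket proteins Rbl2 (p130, the DREAM subunit of resting cells; 7.57, 6.85 and 8.15) and Rb1 (6.95, 6.33 and 7.63), which were 2.46-fold and 2.47-fold higher at 18 than at 14. The MuvB subunits Lin9 and Lin37 read 8.09, 8.33 and 7.67, and 8.45, 8.26 and 7.95. Highest at 14 relative to 13 in this list were Cdkn2a (7.59, 8.27 and 8.04) and Cdk2 (6.77, 7.44 and 7.03). Cdkn1a (p21), the p53-induced Cdk inhibitor, read 11.34, 11.26 and 11.56. Of 17 detected p53 targets, 2 were higher at 14 than at 13 and 3 at least 2-fold lower (background 2.75%). The p53 antagonist Mdm2 read 12.32, 11.95 and 12.10 and Ccng1 13.25, 13.07 and 13.37, and the 2 that were higher were Gadd45a (8.71, 8.89 and 8.97) and Ei24 (11.92, 11.93 and 12.08). At least 2-fold lower were Perp (9.58, 7.33 and 8.65), Fas (8.12, 6.75 and 9.45) and Pmaip1 (9.83, 8.76 and 10.32). Housekeeping genes had a median of -0.003, with Actb at 13.50, 13.49 and 13.47 and Gapdh at 13.52, 13.46 and 13.49, although Tfrc (9.37, 10.93 and 9.20) was higher at 14. Other differences of passage 14 minus 13 reached Gusb (0.59), Hprt (-0.28) and Polr2a (-0.60).

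**Figure D5:**
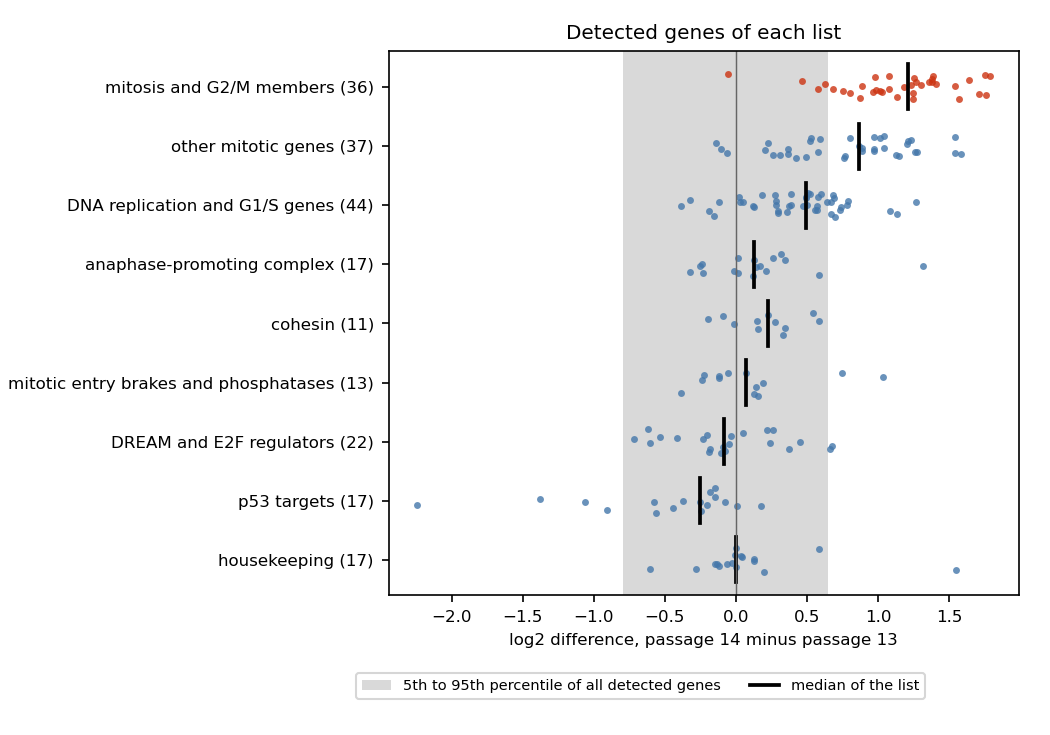
Log2 difference of passage 14 minus 13 for the detected genes of each list (1 point per gene, number of genes in brackets), with list medians as black bars and the 5th to 95th percentile of all detected genes, -0.80 to 0.65, in grey. The members' median of 1.21 lies above that range, and the medians of the other lists are 0.87 for other mitotic genes, 0.49 for replication genes and between -0.25 and 0.23 for the rest.

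Markers of other cell types also differed between the cultures. The summed intensity of the 44 members was 17802, 37152 and 15623 at passages 13, 14 and 18. Over the same cultures, the 10 fibroblast markers (5 detected, with Dcn, Lum and Pdgfra below the floor on all arrays) summed to 3887, 2481 and 5564, and the 8 mural and smooth muscle markers (2 detected, Acta2 and Pdgfrb, with Myh11, Des and Cnn1 below it) to 1692, 499 and 5685. Acta2 alone (log2 10.52, 8.27 and 12.37) made up most of the last sum on each array, and Des and Cspg4, below the floor, were lower at 18 than at 14. Both sums were lowest at passage 14, where the members were highest. Thy1 (log2 11.29, 10.47 and 10.75) made up most of the fibroblast sum at passages 13 and 14. Of the 5 detected fibroblast markers, Col3a1 (7.63, 7.67 and 9.60) and Mmp2 (9.06, 9.15 and 10.34) were lowest at 13. Fbln1 (7.91, 7.08 and 7.02) was lowest at 18. Col1a1 (8.04, 6.54 and 10.26) and Thy1 were lowest at 14, and Col1a1 was 13.2-fold higher at 18 than at 14. The 16 pan-endothelial markers summed to 21233, 21176 and 14302, with passage 18 lowest. Emcn (log2 13.16, 12.82 and 12.74) was the brightest of them on each array. Of the 14 detected, 10 were higher at 14 than at 13 and 4 lower. Fli1 (8.37, 9.88 and 7.59) and Kdr (9.58, 10.69 and 9.29) were at least 2-fold higher at 14 than at 13. The part of these markers and of the Gapdh ratio in the differences between cultures was not tested.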

How the data were processed

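Per the labels' protocols, the cultures' RNA was isolated side by side, amplified linearly in 1 isothermal round and put as biotin-labelled cDNA on a 1-colour Affymetrix mouse array. The authors deposited 1 linear signal intensity per probe set and array. MAS5 appears in the submitters' processing notes with no role stated. For other steps, the sources used here give nothing. Because the arrays nearly share their median and 95th percentile, the deposited intensities were taken to log2 without further normalization.

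The platform annotation gave 34958 probe sets 1 gene and 932 several genes, which were left unnamed, and 34754 were matched to current symbols in RefSeq (GRCm38.p6). Where a gene had several probe sets, the brightest by mean log2 stood for it. Among members, that probe set ends in _x_at or _s_at for Cdc25c, Foxm1, Nek2, Bub1b, Aurkb, Incenp, Cdca8, Cdc20, Pttg1 and Prc1. Aurkb has no probe set without such a suffix. The passage trend used limma 3.58.1 under R 4.3.3 (eBayes with trend, 1 residual degree of freedom before sharing) on 8957 genes with a mean above the mean floor, with Benjamini-Hochberg adjustment and calls at 0.05. The script was tested on simulated data, where 80.5% of 200 genes with a slope of 0.2 were called among 8957. Those arrays were drawn with 1 common spread for all genes, which real genes do not share. In the real fit the members' slopes had a median standard error of 0.149. The simulated share therefore does not give the share of such slopes that the real fit would call. The trend's p-values reflect the spread of 3 cultures alone, and precision is limited by having 3 arrays. Pairs of passages have no test and are counted at 2-fold. Members, lists and tests were chosen with earlier results of these data known. Named are all 44 members and, per list, the first 2 detected genes and the 2 largest differences of passage 14 minus 13 in either direction; marker lists are given by their defining genes, with further genes chosen after their values were seen. Alternatives were the floor, the probe sets, the normalization, 16 added before the log, the fold threshold and leaving out a culture.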

Additional observations from a re-analysis of the deposited data

How the results depend on the processing

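The median differences of the members kept their sign and moved by less than the spread between cultures with the median over all probe sets of each gene, without probe sets ending in _x_at or _s_at, with quantile normalization, with median centring and with 16 added before the log. They ranged from 1.12 to 1.22 for passage 14 minus 13, from -1.62 to -1.43 for 18 minus 14 and from -0.43 to -0.31 for 18 minus 13. For these medians, the spread between cultures is the median of the members' SDs over the 3 arrays. It includes the passage 14 excess and is wider than the 18 minus 13 median, so for that pair the rule could hardly fail. At 3-fold in place of 2-fold, 5 detected members were higher at 14 than at 13 and 18 lower at 18 than at 14. The count of members at least 2-fold lower at 18 than at 13 varied. It was 2 with the median of probe sets, without _x_at and _s_at probe sets and with median centring. It was also 2 over all 44 members with values below the floor taken as read (added after seeing the data). At 1.5-fold it was 9 and at 3-fold 0. Shares of all detected genes were counted at 2-fold alone, so the counts at 1.5-fold and 3-fold have no background beside them. For Cdca3, the median of its probe sets gave -0.16 for passage 14 minus 13, because 2 of its 3 probe sets are below the floor. That setting moved 14 further single-member differences by more than the spread between cultures, among them Nek2 for 14 minus 13 (0.76) and Tpx2 for 18 minus 14 (-0.59), and without _x_at and _s_at probe sets 6 moved. The sign for 18 minus 13 was kept by 36 of 44 members with the median of probe sets, against 43 of 44 for each of the other pairs. The median slope over passage ranged from -0.40 to 1.18 when 1 culture was left out. The number of detected members was 42 with the floor at the 90th percentile, 25 at the maximum of the other-tissue genes and 40 without Apoa2 (added after seeing the data), and ranged from 36 to 39 without 1 culture. The passage trend called 0 members under every alternative run. No paired analysis was possible because there is 1 group. Low signal over background limits Nek2, Kif4, Plk1, Cenpa and Ncapd2 at passage 13.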
